A study of Bos taurus with 16 samples.

Results

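The slow fibre contractile genes are the 10 genes MYH7, MYH7B, MYL2, MYL3, TNNT1, TNNI1, TNNC1, TPM3, ATP2A2 and CASQ2, which encode the slow isoforms of the thick filament, the thin filament and the calcium store of muscle. They were taken from the 34109 gene rows of the round and sirloin tables by symbol, and all 10 were found and had reads in all 16 libraries. The libraries came from 8 male Hanwoo calves (Korean native cattle, Bos taurus), each sampled just after birth in the round region of the hind leg and in the sirloin region. Each region holds several muscles, and the paper does not state which was taken from each calf. They are called round and sirloin muscle here. The mothers of 4 calves received 100% of their nutritional requirement (control), and those of the other 4 received 150% (treated) during mid to late pregnancy. There were thus 4 libraries for each diet in each muscle, and a calf carried the same diet and replicate number in both muscles. The design compared diets within a muscle and allowed muscles to be compared within a calf.

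Muscle fibres differ in how quickly they contract and in how they make ATP. Slow fibres carry the slow myosin heavy chain MYH7 with its light chains, a slow set of troponins that responds to calcium on the thin filament, and a slow calcium pump, and they rely on oxidative metabolism. Fast fibres carry the paralogous fast proteins. Several of the slow proteins are also those of the heart ventricle, and calves, like other large mammals, are born with both fibre types in place.

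Total counts ran from 44473011 to 72446933 per library, and the lowest count of any slow fibre gene in any library was 1006, so counting error was small beside the spread between calves. Levels are given as TPM, the values scaled to transcript length and library total that the authors deposited, and differences in log2 fold change from edgeR's quasi-likelihood test on the counts, with Benjamini-Hochberg adjustment over all genes. In round muscle the library of treated calf 2 stood apart for these genes: the 10 genes held 8.40% of all TPM there, against 1.56% to 4.02% in the other 7 round libraries. The sirloin library of the same calf held 2.14%, within the sirloin range of 1.62% to 3.33%. Of 6 cardiac markers, NPPA, NPPB and MYBPC3 were at 0 in all 16 libraries, TBX20 was at 0 to 0.115 TPM, TNNI3 at 0.566 to 10.02 TPM and MYH6 at 63.5 to 562 TPM, while ACTA1, the skeletal muscle actin, ranged from 18800 to 46277 TPM. In these whole-muscle samples, more slow fibres and more slow-gene RNA per fibre cannot be told apart. Neither can be told apart from a difference between calves in the muscle or site sampled within a region.

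**Figure D1:**
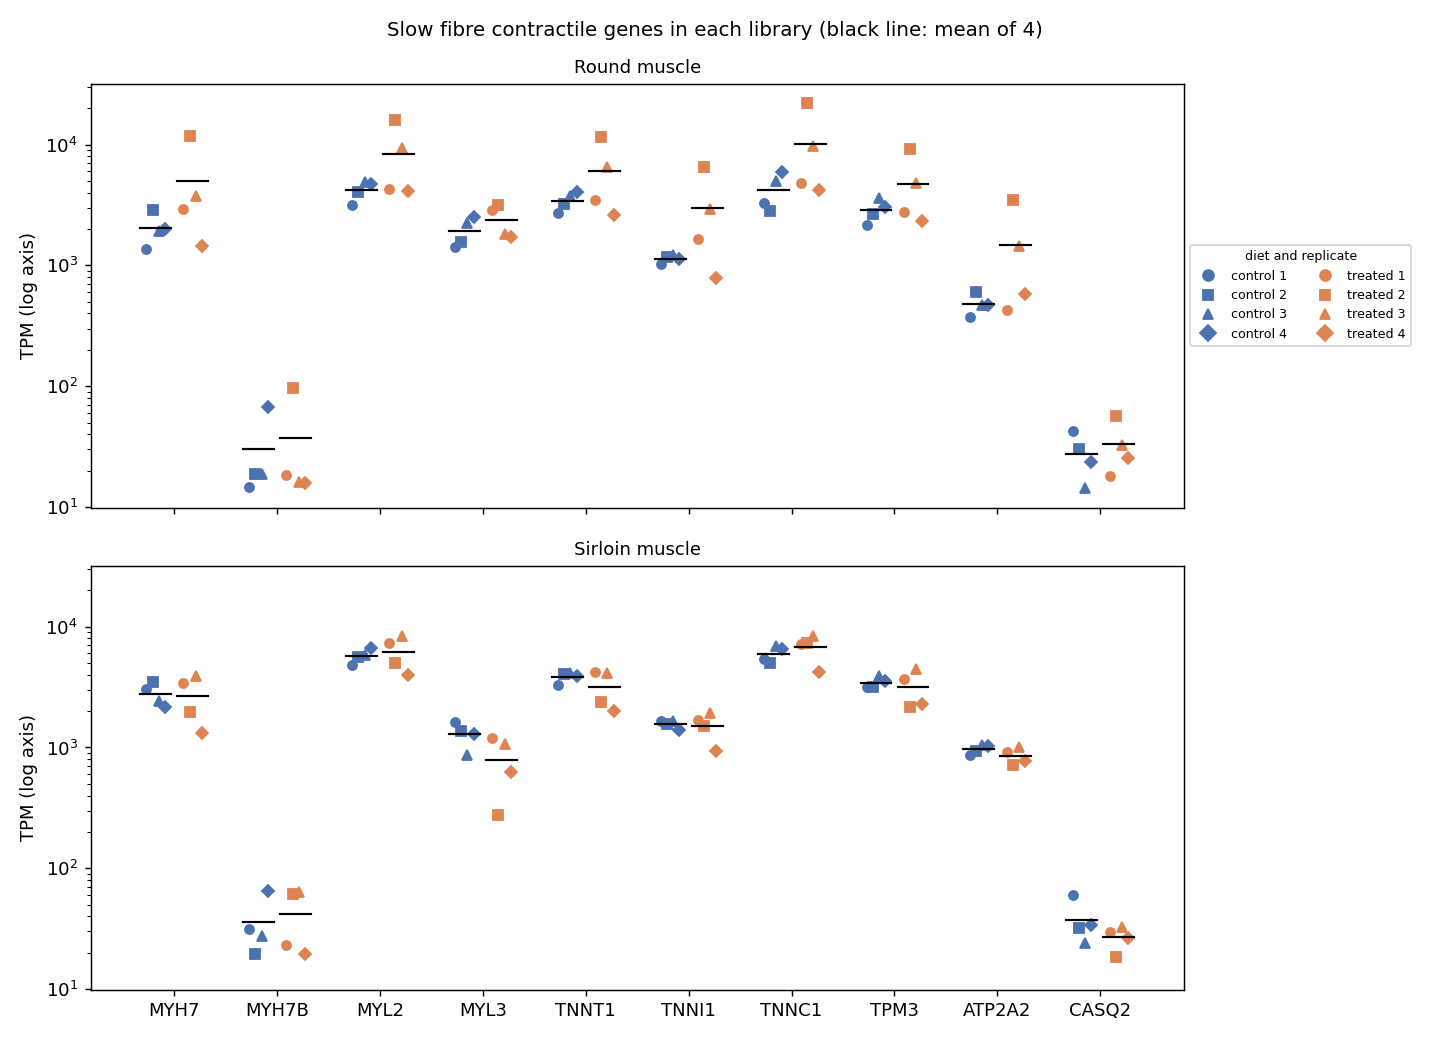
TPM of each slow fibre contractile gene (log axis) in the 16 libraries, round above and sirloin below, with control calves in blue, treated calves in orange, a marker shape for each replicate number and a black line at the mean of 4. The orange squares of treated calf 2 are the highest round values of all 10 genes, and the sirloin points lie closer together for most genes.

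MYH7, the slow and beta-cardiac myosin heavy chain that forms the motor of slow fibres, was at 1354, 2876, 1929 and 1987 TPM in the round muscle of control calves 1 to 4 and at 2954, 11858, 3769 and 1434 TPM in that of treated calves 1 to 4. The treated group held both the highest values and a value close to the control minimum, so the groups overlapped. In sirloin, MYH7 was at 3066, 3503, 2434 and 2154 TPM in control calves and at 3431, 1956, 3911 and 1325 TPM in treated calves, again with overlap. Treated calf 2, whose round muscle held the highest MYH7 level of the study, had the second lowest level of the 8 calves in sirloin. MYH7B, an ancestral slow myosin gene with low protein output in most muscle, was far scarcer. It was at 14.7, 18.6, 18.8 and 67.7 TPM in control round muscle and at 18.2, 97.5, 16.2 and 15.9 TPM in treated round muscle, so that each group had a single high library. In sirloin it was at 31.6, 19.4, 27.6 and 64.6 TPM in control calves and at 23.4, 61.3, 64.2 and 19.5 TPM in treated calves. Control calf 4 and treated calf 2 were high in both muscles, whereas treated calf 3 was high only in sirloin.

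The light chains of the slow myosin head differed from each other in pattern. MYL2, the slow regulatory light chain, ranged from 3184 to 4886 TPM in control round muscle and was at 4251, 15989, 9330 and 4094 TPM in treated round muscle, with treated calves 2 and 3 above every control calf. In sirloin it ranged from 4836 to 6632 TPM in control calves and from 3996 to 8387 TPM in treated calves. MYL3, the slow essential light chain, was at 1406, 1558, 2230 and 2495 TPM in control round muscle and at 2855, 3162, 1822 and 1714 TPM in treated round muscle. Its highest round value was again that of treated calf 2, with treated calf 1 close behind. In sirloin MYL3 was at 1630, 1363, 859 and 1294 TPM in control calves and at 1201, 279, 1059 and 629 TPM in treated calves, and treated calf 2 was the lowest. The ratio of MYL3 to MYL2, a measure chosen after the values were seen and therefore given without a test, averaged 0.413 ± 0.159 (SD, n = 8) in round and 0.178 ± 0.0836 (SD, n = 8) in sirloin and was higher in round in 8 of 8 calves.

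Of the slow troponin subunits, which switch the thin filament on with calcium, TNNI1 is the inhibitory subunit. It was at 1023, 1164, 1217 and 1139 TPM in control round muscle and at 1660, 6561, 2901 and 784 TPM in treated round muscle. Treated calves 1 to 3 lay above all control calves and treated calf 4 lay below them. In sirloin TNNI1 ranged from 1399 to 1665 TPM in control calves and from 934 to 1925 TPM in treated calves. TNNC1, the calcium-binding subunit, was at 3255, 2799, 4965 and 5908 TPM in control round muscle and at 4795, 22097, 9655 and 4173 TPM in treated round muscle. It was the most abundant of the 10 genes in both muscles, and in sirloin it ranged from 5013 to 6895 TPM in control calves and from 4192 to 8375 TPM in treated calves. TNNT1, the tropomyosin-binding subunit, ranged from 2733 to 4042 TPM in control round muscle and from 2593 to 11608 TPM in treated round muscle. TPM3, the slow alpha-tropomyosin gene, which other cells also transcribe in shorter forms, ranged from 2178 to 3616 TPM and from 2326 to 9118 TPM in the same groups. Both genes were at 2021 to 4427 TPM over all sirloin libraries, with treated calves 2 and 4 below every control calf.

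ATP2A2, which encodes the slow and cardiac calcium pump SERCA2, showed the widest spread in round muscle. It was at 375, 602, 470 and 466 TPM in control calves and at 424, 3467, 1445 and 582 TPM in treated calves, so treated calves 2 and 3 stood above the other 6 and treated calves 1 and 4 lay within the control range. In sirloin ATP2A2 was at 875, 944, 1040 and 1022 TPM in control calves and at 911, 710, 1001 and 765 TPM in treated calves, which made it the least variable of the 10 genes there (coefficient of variation 13.2%, against 109% in round). CASQ2, calsequestrin of the slow and cardiac calcium store, was at 42.7, 30.1, 14.3 and 23.4 TPM in control round muscle and at 17.9, 56.5, 32.7 and 25.5 TPM in treated round muscle. Its sirloin values were 60.1, 32.1, 24.2 and 33.9 TPM in control calves and 29.8, 18.5, 32.7 and 26.7 TPM in treated calves, and the groups overlapped in both muscles.

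The levels of the 10 genes kept a similar order in both muscles. By mean TPM in round (n = 8) it ran TNNC1 (7206 ± 6375, SD), MYL2 (6306 ± 4336), TNNT1 (4735 ± 3033), TPM3 (3805 ± 2299), MYH7 (3520 ± 3469), MYL3 (2156 ± 638), TNNI1 (2056 ± 1934), ATP2A2 (979 ± 1062), MYH7B (33.5 ± 31.4) and CASQ2 (30.4 ± 13.8). In sirloin it ran TNNC1 (6368 ± 1392), MYL2 (5957 ± 1435), TNNT1 (3508 ± 861), TPM3 (3289 ± 767), MYH7 (2723 ± 894), TNNI1 (1543 ± 289), MYL3 (1039 ± 435), ATP2A2 (908 ± 120), MYH7B (39.0 ± 20.6) and CASQ2 (32.2 ± 12.4), so the place of MYL3 and TNNI1 was exchanged. Neighbours in the order were compared within libraries by an exact two-sided sign-flip permutation test of the log2 ratio, adjusted over 18 neighbour pairs. The pairs were set by the mean TPM of these same libraries. The p-values therefore describe this order and are not independent support for it. The medians of MYH7B and CASQ2 in round ran against the order of their means (18.4 and 27.8 TPM). MYL2 was above TNNT1, and ATP2A2 above MYH7B, in 8 of 8 libraries of each muscle (adjusted exact p = 0.0176 for each). In round the same held for TNNT1 over TPM3 and TNNI1 over ATP2A2, and in sirloin for MYH7 over TNNI1 and TNNI1 over MYL3. The other neighbours, among them TNNC1 with MYL2 and MYH7B with CASQ2, did not differ beyond their spread (adjusted exact p from 0.0781 to 0.852).

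The effect of maternal overfeeding on the slow fibre genes was first examined in round muscle. All 10 genes had a fold change above 0 (treated over control), as did 51.9% of all genes tested, and the median was 0.77 on the log2 scale against 0.02 over all genes. Of the 10, 0 passed an adjusted p of 0.05 in edgeR, where 4 of 21677 genes did (0.0185%), 0 in DESeq2, where 0.208% of genes did, and 0 in limma-voom. ATP2A2 was at 1.51 ± 0.52 (log2 fold change ± SE), TNNI1 at 1.26 ± 0.50, MYH7 at 1.15 ± 0.51 and TNNC1 at 1.09 ± 0.49, each with an edgeR adjusted p of 0.864. These 4 of 10 genes had an unadjusted p below 0.05 (4 higher and 0 lower in treated calves), against 4.41% of all genes tested (1.92% higher and 2.49% lower). All 4 are among 7 genes that co-varied across these round libraries (Pearson's r from 0.82 to 0.98, given below). The counts are thus not of independent genes. In DESeq2, 5 of 10 had an unadjusted p below 0.05, and in limma-voom 0 of 10. MYL2 was at 0.86 ± 0.40, TNNT1 at 0.67 ± 0.40 and TPM3 at 0.57 ± 0.39, and MYL3, CASQ2 and MYH7B were between 0.10 and 0.20. The groups overlapped in TPM for each of the 10 genes, while they did not overlap for 1.74% of all genes tested.

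The size of the round values rested largely on treated calf 2. Its round library was the highest of the 8 for 10 of 10 slow fibre genes and for 21.0% of all 11856 genes with a mean of at least 1 TPM, and treated calf 3 was the second highest for 7 of 10. Without treated calf 2, ATP2A2 was at 0.72, TNNI1 at 0.57, TNNC1 at 0.44, MYL2 at 0.40, MYH7 at 0.35, TNNT1 at 0.20, TPM3 at 0.10 and MYL3 at 0.06 on the log2 scale. CASQ2 was then at -0.20 and MYH7B at -0.95, and 0 of 10 genes had an unadjusted p below 0.05. The median of the 10 genes was 0.28. Without treated calf 3, ATP2A2 was at 1.49 and MYH7 at 1.22. The number of genes with an unadjusted p below 0.05 also moved with other calves, to 1 without control calf 1 or control calf 2, 2 without control calf 3 or treated calf 3, 3 without control calf 4, 5 without treated calf 1 and 6 without treated calf 4.

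The same comparison was made in sirloin muscle. Of the 10 genes, 2 had a fold change above 0, as did 52.9% of all genes, the median was -0.22 on the log2 scale against 0.03 over all genes, and 0 of 10 passed an adjusted p of 0.05 in edgeR (2 of 21776 genes, 0.00918%), in DESeq2 (0.0597% of genes) or in limma-voom. MYL3 was at -0.87 ± 0.41 and CASQ2 at -0.67 ± 0.32, each with an edgeR adjusted p of 0.876. TNNT1 was at -0.44 ± 0.27, and the other 7 genes were between -0.27 and 0.06. None of the 10 had an unadjusted p below 0.05 in edgeR, compared with 3.91% of all genes (2.3% higher and 1.62% lower), and DESeq2 and limma-voom each gave 1, MYL3. The groups overlapped in TPM for each of the 10 genes, and did not for 2.99% of all genes tested. Sirloin treated calf 4, which had the lowest level of 5 of the 10 genes (MYH7, MYL2, TNNT1, TNNI1 and TNNC1), also had 3777 TPM of 5 adipocyte markers in sum, against 0.730 to 14.99 TPM in the other 15 libraries, and the part of these cells in the values was not tested. Without that calf, MYH7 was at -0.02 and MYL3 at -0.77.

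**Figure D2:**
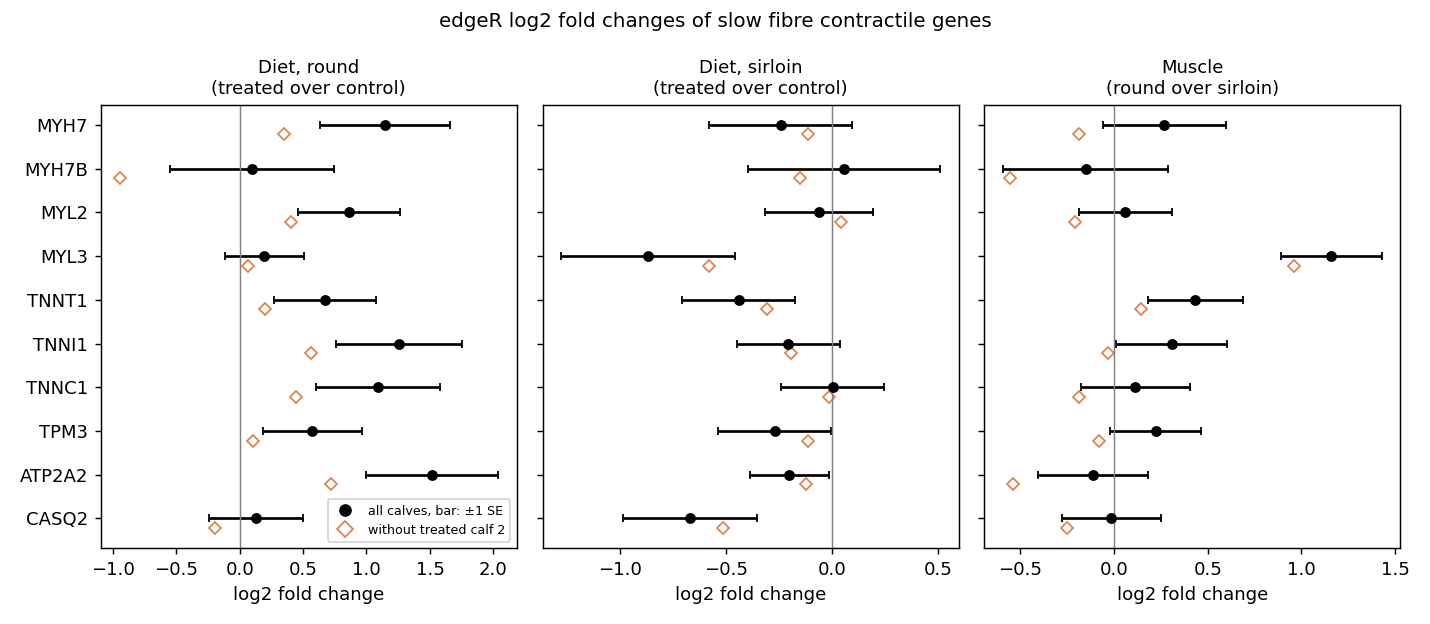
Log2 fold changes from edgeR of the 10 genes for diet in round, diet in sirloin and round over sirloin; black points with bars are the values with 1 standard error over all calves, and open orange diamonds are the values without treated calf 2. In round, the diamonds lie nearer to 0 than the points for 8 of the 10 genes, and in the muscle comparison MYL3 stands apart at 1.16.

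Whether the diet effect differed between muscles was tested as an interaction, the treated over control change in round less that in sirloin. It was above 0 for all 10 genes and for 47.0% of all genes, with a median of 1.06 on the log2 scale against -0.04 over all genes, and 0 of 10 passed an adjusted p of 0.05 in edgeR or DESeq2 (background 0.0%, 0 of 22877 genes), nor with the calf as a block (0.00437%). ATP2A2 was at 1.70 ± 0.59, TNNI1 at 1.44 ± 0.59 and TNNT1 at 1.10 ± 0.51 on the log2 scale, each with an edgeR adjusted p of 1.00. These were the 3 of 10 genes with an unadjusted p below 0.05 in edgeR, all above 0, against 2.78% of all genes (1.18% above and 1.6% below 0), and the number was 4 in DESeq2, 5 with the calf block, 2 in limma-voom and 0 on log2(TPM + 1). Without treated calf 2 the values were 0.84, 0.76 and 0.52, and 0 of 10 genes had an unadjusted p below 0.05. Here too the genes co-varied across calves, so the counts are not of independent genes.

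Between muscles, MYL3 was the gene that differed most. It was higher in round than in sirloin in 7 of 8 calves, with a log2 fold change of 1.16 ± 0.27 (edgeR adjusted p = 0.214), and 14.0% of all genes were higher in the same muscle in at least 7 of 8 calves. The exception was control calf 1, where the round level was 0.863 times that in sirloin, and the largest ratio was 11.3 in treated calf 2. With the calf as a block the edgeR adjusted p was 0.0796, and in DESeq2 it was 0.0102, so the call depended on the tool. Thus 0 of 10 genes passed in edgeR (14 of 22877 genes, 0.0612%), 0 of 10 with the calf block (0.476%) and 1 of 10 in DESeq2 (0.367%). Only MYL3 had an unadjusted p below 0.05 in edgeR, against 6.33% of all genes (3.3% higher and 3.02% lower in round). Leaving out treated calf 2 gave 0.96 for MYL3. Of the 10 genes, 7 had a fold change above 0, as did 50.6% of all genes, and without treated calf 2 the number was 2. The other 9 genes lay between -0.15 and 0.43 on the log2 scale, with standard errors from 0.24 to 0.44.

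ATP2A2 was lower in round than in sirloin in 6 of 8 calves, with round levels of 375 to 602 TPM against 765 to 1040 TPM in sirloin for those 6, and higher in round in treated calves 2 and 3, by 4.88 times and 1.44 times. The log2 fold change of round over sirloin was -0.11 ± 0.29 over all calves and -0.54 without treated calf 2 (edgeR adjusted p = 0.848). CASQ2 was lower in round in 7 of 8 calves, with treated calf 2 the exception and treated calf 3 nearly equal, and had a log2 fold change of -0.01 ± 0.26. MYH7, TNNC1, TNNI1 and MYH7B were each higher in round in 2 of 8 calves, MYL2 and TPM3 in 3 and TNNT1 in 4.

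To compare slow with fast isoforms directly, each slow gene was expressed as a share of the TPM of its family. In round, MYH7 made up 8.06%, 20.8%, 20.4% and 22.1% of the TPM of 6 myosin heavy chains (MYH7, MYH1, MYH2, MYH4, MYH3 and MYH8) in control calves, against 16.2%, 69.5%, 39.1% and 12.46% in treated calves. In sirloin it made up 11.6% to 28.3% over all 8 calves. The round muscle of treated calf 2 thus held more MYH7 than the other 5 heavy chains together, and that of the other 7 calves held less. The same library had a TNNC1 share of 80.2%, a TNNI1 share of 72.7%, a TNNT1 share of 71.9% and an ATP2A2 share of 60.8% of slow plus fast isoform, against sirloin shares in that calf of 34.9%, 23.0%, 21.6% and 17.2%. Treated calf 3 had the second highest round share of each of these 5 genes. In round, the TPM3 share of the 3 tropomyosins ran from 9.55% to 35.2%, and CASQ2 stayed at 0.861% to 4.42% of the calsequestrins.

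**Figure D3:**
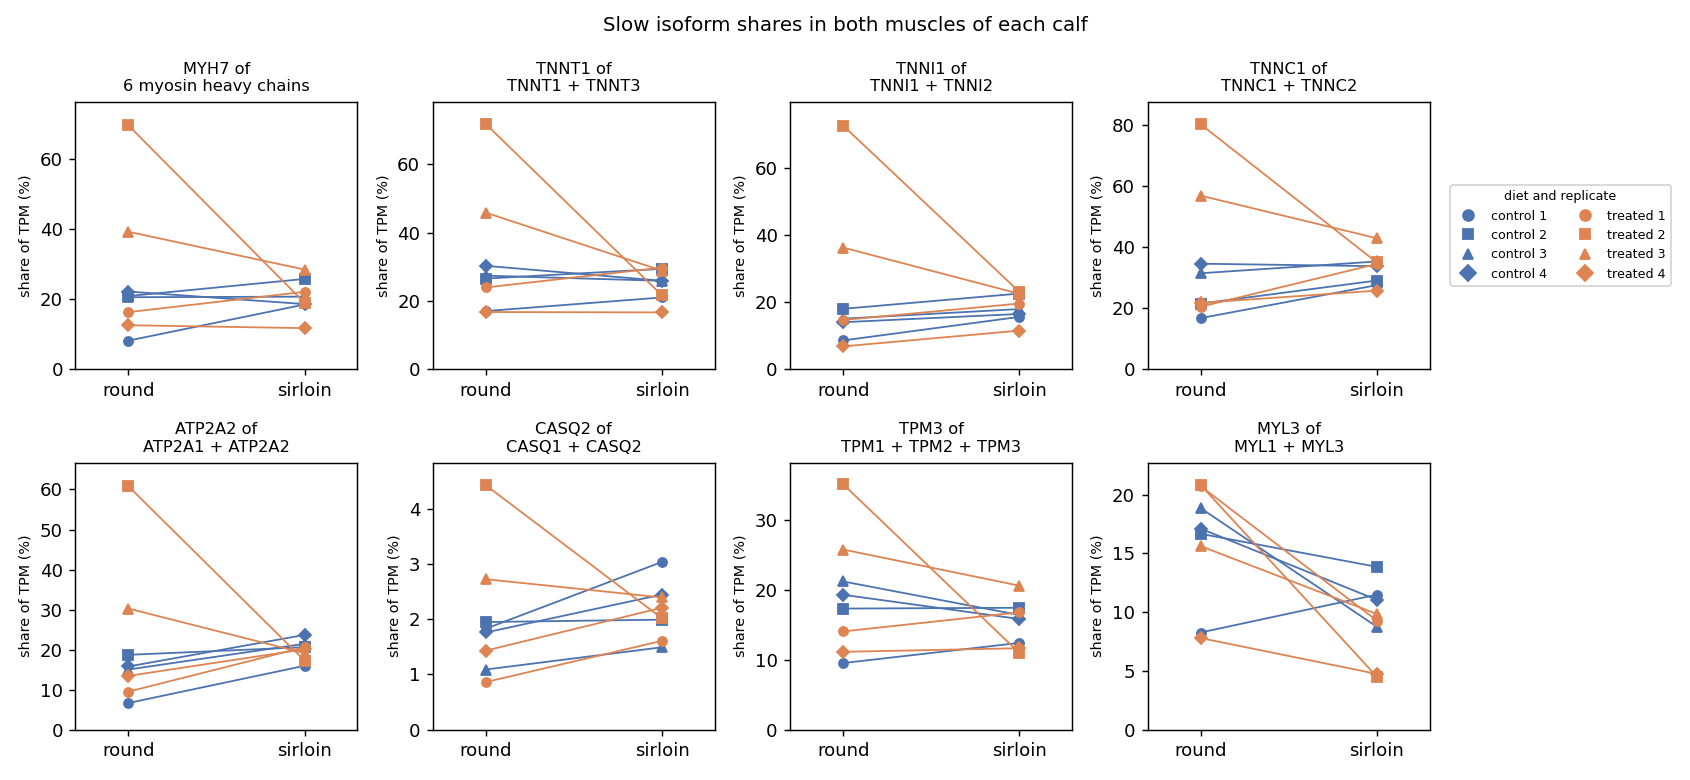
Share of TPM (%) held by each slow isoform within its family, with a line joining the round and sirloin value of each calf, control in blue and treated in orange. Treated calves 2 and 3 lie above the others in round for MYH7, the slow troponins and ATP2A2, while sirloin shares lie close together, and the MYL3 share is lower in sirloin in 7 of 8 calves.

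Of the 24 share comparisons (8 shares for diet in each muscle and for muscle), 0 passed an adjusted p of 0.05 in exact permutation tests. The smallest exact two-sided p these designs allow is 0.0286 for diet (4 against 4) and 0.00781 for muscle (8 calves). After adjustment over the 24 comparisons, a single share at its smallest p could not pass. The count of 0 therefore does not show that the shares were equal. For diet in round, the MYH7 share was 34.3% ± 26.2 (SD, n = 4) in treated and 17.8% ± 6.55 (SD, n = 4) in control calves (exact permutation p = 0.343, adjusted p = 0.914). The MYL3 share of MYL1 plus MYL3 was 15.7% ± 5.10 (SD, n = 8) in round and 9.19% ± 3.23 (SD, n = 8) in sirloin, a difference of 6.55 percentage points with the same sign in 7 of 8 calves (exact sign-flip permutation p = 0.0312, adjusted p = 0.75). In sirloin the MYL3 share was 7.10% ± 2.86 (SD, n = 4) in treated and 11.3% ± 2.09 (SD, n = 4) in control calves (exact permutation p = 0.0857, adjusted p = 0.914). The other muscle differences ran from -0.14 to 7.58 percentage points, with the ATP2A2 share higher in sirloin in 6 of 8 calves. The myosin heavy chain paralogs have long near-identical stretches, so reads may have been split between them, and the MYH7 share carries that uncertainty. MYH6, which is nearly identical to MYH7 over long stretches, was not among the 6 chains.

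Co-variation across calves was strong for 7 of the 10 genes in round muscle. Among MYH7, MYL2, TNNT1, TNNI1, TNNC1, TPM3 and ATP2A2, grouped after the values were seen, Pearson's r of log2 CPM (library-size-scaled counts) over the 8 calves ran from 0.82 to 0.98 with a median of 0.93. Of all 45 pairs of the 10 genes, 18 passed an adjusted p of 0.05 by exact permutation over 90 pairs in both muscles, all with r above 0 and all within those 7 genes. By Spearman's rho 4 of 45 passed, and without treated calf 2, 0 of 45 passed. The r values of the 7 genes without that calf had a median of 0.80 and a lowest value of 0.45. TNNT1 was then at r = 0.94 with both TPM3 and MYL2, so for these pairs r stayed high while the calls over 7 calves were lost. MYH7 was then at r = 0.84 with TNNI1, 0.69 with TNNT1, 0.63 with MYL2, 0.61 with TPM3, 0.52 with ATP2A2 and 0.45 with TNNC1. The highest was TNNT1 with TPM3 (r = 0.98, exact permutation p adjusted to 0.00856; rho = 0.95, adjusted p = 0.0342), with r = 0.88 after the 2 calves farthest from the TNNT1 median were left out. MYL2 with TNNC1 followed the same course (r = 0.97, 0.89 without the 2 farthest calves). MYH7 with TNNI1 was at r = 0.95 and rho = 0.86, and at r = 0.77 without the 2 farthest calves. TNNI1 with ATP2A2 was at r = 0.87 (exact permutation p adjusted to 0.0525; rho = 0.40) and at -0.75 without the 2 calves farthest from the TNNI1 median. Over all 8 calves, 6 of the 9 other genes had an r of at least 0.8 with MYH7 in round, where 1.36% of 11855 genes did, and 2 had one in sirloin, where 2.27% of 11885 genes did. Of the 6 in round, only TNNI1 stayed at 0.8 or above without treated calf 2. MYL3, MYH7B and CASQ2 had 0 pairs past the threshold in round, and their median r with the other 9 genes was 0.48, 0.60 and 0.40.

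**Figure D4:**
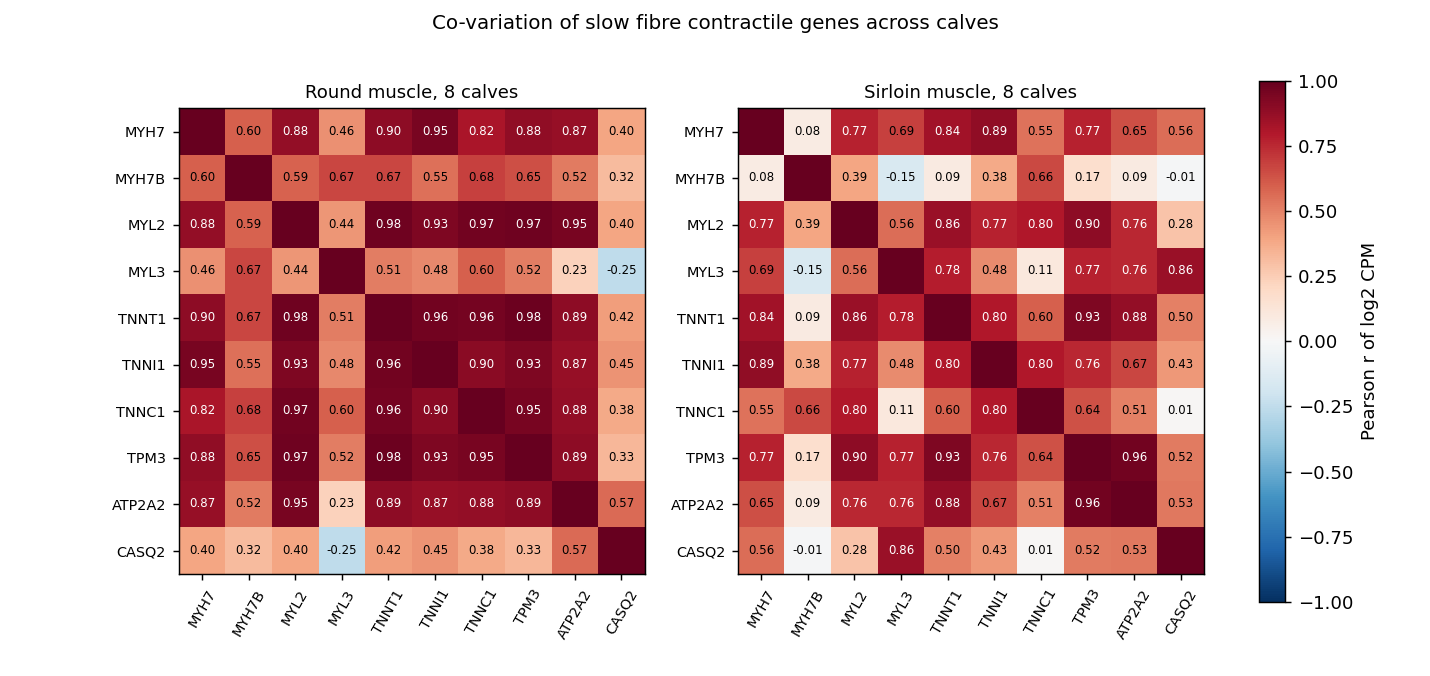
Pearson's r of log2 CPM over 8 calves for each pair of slow fibre genes in round (left) and sirloin (right), red for r above 0 and blue for r below 0, with the value in each cell. In round, 7 genes form a block with r from 0.82 to 0.98, with MYL3, MYH7B and CASQ2 outside it, and in sirloin r is lower for 20 of the 21 pairs of those 7 genes and higher for TPM3 with ATP2A2.

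In sirloin the genes other than MYL3 co-varied over a smaller range of levels. The highest MYL3 level was 5.85 times the lowest in sirloin and 2.25 times in round. For 10 of the 45 pairs r was higher than in round, 9 of them with MYL3 or CASQ2. For the same 7 genes r ran from 0.51 to 0.96 with a median of 0.77, and 7 of the 45 pairs passed. TPM3 with ATP2A2 was highest (r = 0.96, exact permutation p adjusted to 0.00856; rho = 0.83, adjusted p = 0.0814) and was at r = 0.83 without the 2 calves farthest from the TPM3 median. MYL3 with CASQ2, which stood at r = -0.25 in round, was at r = 0.86 in sirloin (exact permutation p adjusted to 0.0434; rho = 0.95, adjusted p = 0.0342) and at 0.90 without the 2 farthest calves. Over all 45 sirloin pairs the median r dropped from 0.65 to 0.02 when the 2 calves farthest from the median of the first gene were left out. The calves left out were set by the first gene of each pair and could differ between pairs. Leaving out the farthest calves also narrows the range of levels, which by itself lowers r. Leaving out any one of treated calves 2, 3 and 4 left 1 of 45 pairs past the threshold, although without treated calf 2 the median r was 0.68 over the 45 pairs and 0.84 over the 7 genes.

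The level of each gene in round was compared with that in the sirloin of the same calf. For the 10 genes r between muscles ran from -0.58 for ATP2A2 to 0.64 for MYH7B, and 0 of 10 passed by Pearson's r or Spearman's rho (smallest exact permutation p of r = 0.122, adjusted p = 0.679). MYH7 was at r = -0.05 (exact permutation p = 0.903; rho = 0.21) and at 0.29 without the 2 calves farthest from its round median, or at 0.60 without treated calf 2. Treated calf 2 bore on most of these values, since without it r was 0.80 for CASQ2, 0.74 for TPM3 (-0.25 over all calves), 0.66 for TNNI1, 0.65 for TNNC1 and 0.62 for MYL2. Over all 8 calves TNNC1 was at r = 0.48 (exact permutation p = 0.22; rho = 0.62).

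The fast counterparts ran against MYH7 across calves in round muscle. Of 14 fast fibre genes, PVALB had reads in only 1 of 8 round libraries (6 counts) and is left out of the tally. The other 13 had an r below 0 with MYH7 there, from -0.95 to -0.26 with a median of -0.70, beside a median of -0.02 over 11855 genes with a mean of at least 1 TPM. With adjustment over 134 listed gene and muscle combinations, 2 passed: TNNT3, fast troponin T (r = -0.95, exact permutation p = 0.00141, adjusted p = 0.0316; rho = -0.83, adjusted p = 0.229; r = -0.79 without the 2 calves farthest from the MYH7 median), and MYLPF, the fast regulatory light chain (r = -0.95, exact permutation p = 0.000868, adjusted p = 0.0233; rho = -0.86, adjusted p = 0.179; r = -0.85 without them). MYH1, a fast heavy chain, was at 223 TPM in treated calf 2 and 374 TPM in treated calf 3 and at 2973 to 6961 TPM in the other 6 round libraries. In sirloin 12 of the same 13 fast genes had an r above 0 with MYH7, as did 6349 of 11885 genes. Their median was 0.29, beside 0.05 over those genes, and 0 passed. Without the 2 calves farthest from the MYH7 median, r of the 13 ran from -0.48 for MYH1 to 0.50 for MYH2. MYH2, the heavy chain of fast oxidative fibres, did not share the pattern of MYH1 in round: it was at 4787 and 5316 TPM in treated calves 2 and 3, within its range of 2450 to 10578 TPM. For diet, 0 of the 14 fast genes passed the adjusted threshold in either muscle in edgeR, DESeq2 or limma-voom, and their median log2 fold change was -0.14 in round and -0.28 in sirloin.

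**Figure D5:**
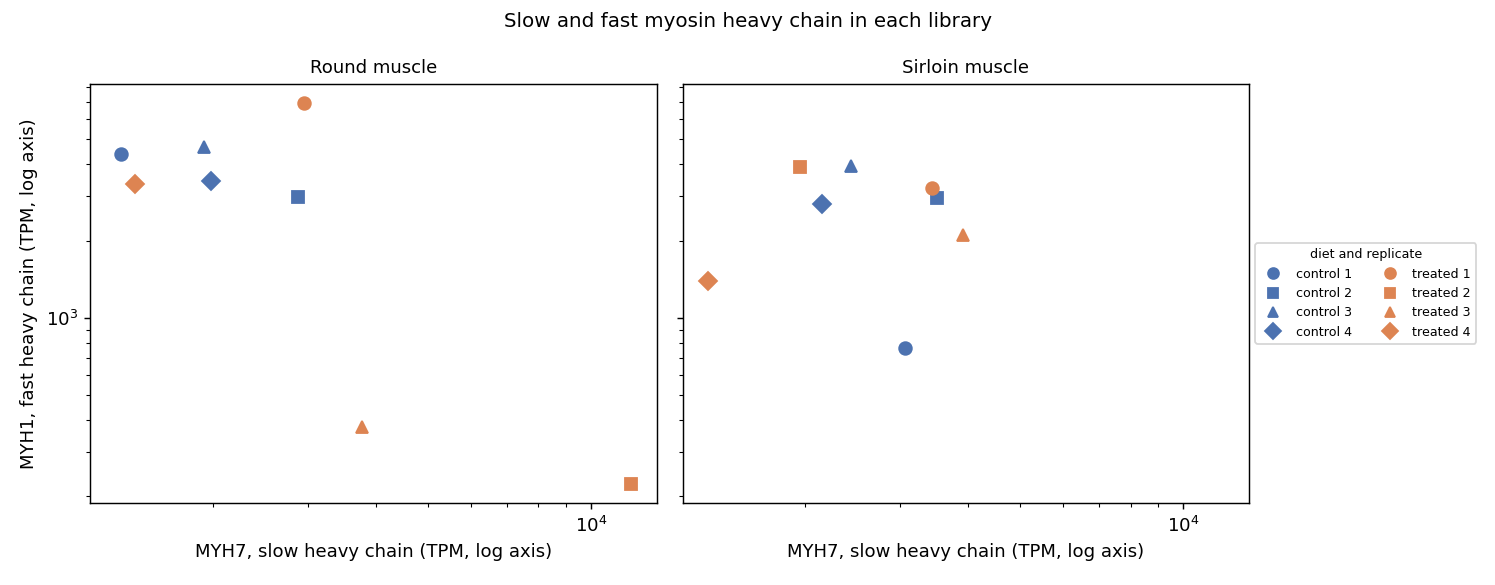
MYH1 (fast myosin heavy chain) against MYH7 (slow) in TPM on log axes, with one point per library, round on the left and sirloin on the right, control in blue and treated in orange. In round, treated calves 2 and 3 combine the highest MYH7 with the lowest MYH1 values of 223 and 374 TPM.

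Among the other slow fibre genes, 10 genes of slow or oxidative fibres outside the contractile set, 0 of 10 passed the adjusted threshold for diet in either muscle in edgeR, DESeq2 or limma-voom, and between muscles 0 passed in edgeR and limma-voom and 1, CRYAB, in DESeq2. Their r with MYH7 had a median of 0.41 in round, from -0.38 for CRYAB to 0.95, with 2 past the threshold, and of 0.47 in sirloin with 0 past it. LDHB, the lactate dehydrogenase subunit of oxidative tissue, ranked the 8 round libraries as MYH7 did (rho = 1.00; r = 0.86, exact permutation p = 2.48e-05, adjusted p = 0.00166; r = 0.74 without the 2 farthest calves), which is the smallest p that 40320 orderings can give. In sirloin LDHB was at r = -0.03 and rho = -0.02 with MYH7. PDLIM1, a Z-disc protein, was also past the threshold in round (r = 0.95, exact permutation p = 0.00211, adjusted p = 0.0404; rho = 0.90, adjusted p = 0.122; r = 0.68 without them). MYL6B, a slow skeletal essential light chain gene named after its values were seen, was at 2660 and 1906 TPM in round treated calves 2 and 3 and at 135 to 476 TPM in the other 6 round libraries, and at 760 to 2244 TPM in sirloin. CRYAB, a small heat shock protein of oxidative muscle also named after its values were seen, had the largest muscle difference of the list, with 1.43 ± 0.30 on the log2 scale (round over sirloin, edgeR adjusted p = 0.132, DESeq2 adjusted p = 0.00138). MYH6, the alpha heavy chain gene next to MYH7, ranked the libraries as MYH7 did in round (rho = 1.00; r = 0.92, exact permutation p = 2.48e-05, adjusted p = 0.00166; r = 0.93 without the 2 farthest calves) and followed it in sirloin (r = 0.92, exact permutation p = 9.92e-05, adjusted p = 0.00443; rho = 0.93; r = 0.75 without them). It is nearly identical to MYH7 over long stretches, so reads may have been shared between the genes.

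Of 21 regulators of fibre type, among them calcineurin subunits, MEF2 factors and SOX6, 0 passed the adjusted threshold in edgeR or limma-voom for diet in either muscle or for muscle, while in DESeq2 1, PPARGC1A, passed for diet in each muscle. None of the 21 had an r with MYH7 past the threshold in either muscle. Their median log2 fold change for diet was -0.04 in round and -0.32 in sirloin. PPARGC1A, the coactivator of oxidative gene programmes, named here after its values were seen, was at -2.71 ± 0.66 in round (edgeR adjusted p = 0.864) and -2.90 ± 0.72 in sirloin (edgeR adjusted p = 0.876) on the log2 scale. DESeq2 gave -2.73 in round (adjusted p = 0.00753) and -2.91 in sirloin (adjusted p = 0.0127), so the call depended on the tool. Its round levels were 29.4, 9.97, 132 and 97.8 TPM in control calves and 6.21, 16.7, 12.4 and 10.7 TPM in treated calves, which overlapped. Over all sirloin libraries its levels ran from 8.88 to 185 TPM. The paper lists PPARGC1A as lower in treated calves in both muscles with DESeq2, and reports lower qPCR levels in treated round muscle. The 6 developmental contractile genes, such as MYH3 and MYH8 of embryonic and neonatal fibres, gave 0 genes past the adjusted threshold in the same comparisons in edgeR, DESeq2 or limma-voom. The rows of the microRNAs hosted by the slow heavy chain genes were low, with MIR208B at 0 to 20.3 TPM and MIR499 at 0 to 1.06 TPM, and both had their highest value in the round muscle of treated calf 2. The libraries were not made for small RNA, so these rows do not measure the mature microRNAs.

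Likeness to MYH7 was also ranked over all 16 libraries by Pearson's r of log2 CPM after the mean of each of the 4 groups was removed, as a description over 11898 genes. TNNI1 ranked 2nd (r = 0.90), TNNT1 4th (0.87), TPM3 13th (0.82), MYL2 14th (0.81), ATP2A2 45th (0.74) and TNNC1 78th (0.70). MYH7B (0.48), MYL3 (0.47) and CASQ2 (0.41) ranked 729th, 789th and 1131st. Outside the gene lists, XPO4 (0.86), STARD9 (0.86), RAB11FIP2 (0.85), ADAMTSL5 (0.84) and SLC27A1 (0.83) were most like MYH7. Each of these 5 genes was above its round median in round treated calf 2, from XPO4 (33.9 against 11.2 TPM) to SLC27A1 (59.4 against 26.4 TPM). Their likeness to MYH7 without that library was not tested. Outside the gene lists and the genes with LOC symbols, PPP1R14A (-0.89), GGA2 (-0.85), RPS27L (-0.83), CNIH4 (-0.83) and GPR146 (-0.82) were least like MYH7. These libraries include pairs from the same calf.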

How the data were processed

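Round and sirloin muscle RNA of 8 calves was sequenced (16 libraries, 4 per group). The deposited count tables hold whole-number read counts per gene, and the deposited TPM tables hold values scaled to transcript length and library total, both made by the authors. The methods of the study name HISAT2 and Bowtie2, StringTie and a ribosomal-RNA-depletion kit, whereas the submitters' notes name STAR, featureCounts, the build ARS-UCD1.2 and poly(A) selection, and the difference was not resolved here. Fold change and p-value tables of the authors were not used. NCBI gene IDs were paired with symbols from RefSeq (ARS-UCD2.0), which matched 30762 of 34109 (90.19%), and MYLPF was matched through its synonym field. No coordinates are printed.

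Counts of genes with at least 1 count in any library were fitted with edgeR 4.0.16 (quasi-likelihood, TMM, Benjamini-Hochberg adjustment, threshold 0.05) in R 4.3.3: diet within each muscle on 8 libraries, and muscle and the diet by muscle interaction on 16 libraries in 4 groups. DESeq2 1.42.0, limma 3.58.1 (voom, and log2(TPM + 1) or log2(TPM + 0.1)), other normalizations and filters, blocks and leaving out each calf were alternatives. Isoform shares used TPM. Permutation tests were exact and two-sided, and correlations used log2 CPM with a prior count of 2. Scripts were tested on simulated data with 200 changed genes. At a log2 change of 2, edgeR recovered 91.5% for diet in round, 89% for diet in sirloin, 100% for muscle and 39.5% for the interaction. An interaction of that size was thus often missed. False calls numbered 3 to 8 in edgeR and 24 to 34 in DESeq2. The simulated spread was the same for all genes, without an outlying calf. Named genes were all 10 members, listed genes past the threshold, fast counterparts and the 5 most and 5 least like MYH7. These last were taken outside the lists, among genes with a symbol not starting with LOC and a mean of at least 1 TPM. Fast counterparts are given by group, with examples. The 10 genes and all lists were chosen with earlier results of these data known.

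Round and sirloin libraries with the same number in their labels were taken as the same calf. They deviated together from their group means (r from 0.25 to 0.59 over all genes), so calf was a block for the muscle comparison as an alternative. The fewest genes with unequal counts between any 2 libraries was 17923, so no 2 libraries were counted as 1. The highest of these r was that of control calf 2. The labels give no sequencing batch. Depth was 44473011 to 72446933 counts per library. The libraries of control calf 2 were the deepest in both muscles (72446933 counts in round and 72165291 in sirloin). They alone had a TPM sum of 1000000.0, against 999755.6 to 999858.0 in the others. The paper describes a control round sample, C2, as an outlier. The cause was not tested.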

Additional observations from a re-analysis of the deposited data

Results flagged for a closer look

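The values of each group of 4 calves were screened for a single distant value (72 groups, where chance alone gives about 1 in 20). In control round muscle, MYH7B of calf 4 was at 67.7 TPM, far above the other 3 calves. In treated round muscle, MYH7B of calf 2 was at 97.5 TPM, far above the other 3. The MYH7 share of myosin heavy chain TPM in control round calf 1 was 8.06%, far below the other 3 calves. The cause of these 3 values was not tested.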

How the results depend on the processing

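Counts of genes past the adjusted threshold depended on the tool. For diet in round, 4 genes passed in edgeR, 45 in DESeq2, 1 in limma-voom, 0 on log2(TPM + 1) and 1 on log2(TPM + 0.1); for diet in sirloin, 2 in edgeR, 13 in DESeq2, 0 in limma-voom, 0 on log2(TPM + 1) and 1 on log2(TPM + 0.1); for muscle, 14 in edgeR and 84 in DESeq2. Leaving out each calf in turn gave 0 to 3 (round), 0 to 1 (sirloin), 13 to 19 (muscle) and 0 (interaction). In DESeq2, MYL3 passed for muscle at 1.17 (log2), the only call of a slow fibre gene under any alternative; MYH7B had no DESeq2 p for diet in round. With calf as a replicate block 109 genes passed for muscle and 1 for the interaction. Replicate numbers do not pair calves across diets (correlations from -0.15 to 0.19); with that replicate block 2 genes passed in round and 0 in sirloin, with MYH7B at -0.0100 in round and TNNC1 at -0.0253 in sirloin.

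Co-varying pairs of 45 numbered 18 in round (4 by Spearman's rho, 0 to 18 leaving out each calf, with 0 without treated calf 2, 8 without treated calf 3 and 11 without control calf 4) and 7 in sirloin (1 by rho, 1 to 7 leaving out each calf, with 1 without treated calf 2, 3 or 4, 2 without control calf 4 and 3 without treated calf 1). Some values near 0 turned sign. These were MYL2 for diet in sirloin (0.0537 on both TPM scales) and TNNC1 there (-0.0287 in limma-voom); for muscle, MYL2 (-0.0959 on both TPM scales, -0.0154 in voom and -0.0216 with the calf block) and TNNC1 (-0.123, -0.0430 and -0.0487); and for the interaction, MYH7B (-0.0751 on log2(TPM + 1), -0.0778 on log2(TPM + 0.1), -0.0293 in voom and -0.00103 with the calf block). The ATP2A2 share for diet in sirloin was 0.93 percentage points from CPM. The cause was not tested. Signs that turned when a calf was left out gave these ranges. For diet in round, log2 values of MYH7B ran from -0.95 to 0.96, CASQ2 from -0.20 to 0.47 and shares in percentage points of MYL3 ran from -1.30 to 3.83. For diet in sirloin, log2 values of MYL2 ran from -0.26 to 0.10, TNNC1 from -0.13 to 0.18, MYH7B from -0.24 to 0.46 and shares in percentage points of MYH7 ran from -3.29 to 2.27, TNNT1 from -3.18 to 1.21, TNNI1 from -0.29 to 3.56, CASQ2 from -0.435 to 0.0797, TPM3 from -2.39 to 0.82. For muscle, log2 values of MYH7 ran from -0.19 to 0.44, MYL2 from -0.21 to 0.21, TNNI1 from -0.0342 to 0.42, TNNC1 from -0.19 to 0.24, TPM3 from -0.0821 to 0.36, ATP2A2 from -0.54 to 0.0489, MYH7B from -0.56 to 0.11, CASQ2 from -0.25 to 0.11 and shares in percentage points of MYH7 ran from -0.85 to 7.85, TNNI1 from -1.82 to 6.29, TNNC1 from -3.64 to 4.84, ATP2A2 from -4.60 to 3.22, CASQ2 from -0.50 to 0.0121. For the interaction, log2 values of MYH7B ran from -0.79 to 0.54.

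The number of calves limits precision: 4 per group, of which 1 carried most of the round diet differences. Depth does not, at 1006 counts or more per gene.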
